A study of Mus musculus with 12 samples.

Results

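The interferon regulatory factors (Irf proteins) are transcription factors that share a DNA-binding domain which reads GAAA repeats. Some of them switch on interferon genes when a cell senses viral nucleic acid, others carry the signal of interferon receptors to the nucleus, and others steer lymphocyte and myeloid fates. In helper T cells Irf4 is induced by the antigen receptor and is needed for several effector fates, Irf1 is known as a factor of the Th1 programme, and Irf2 counters Irf1 at shared sites. The gene areas described here are those whose symbol in the deposited table was Irf1, Irf2, Irf3, Irf4, Irf5, Irf7, Irf8 or Irf9. All 8 were found, 1 row each, among 37544 gene areas, and all 8 were among the 28159 gene areas whose mean signal over the 10 antibody libraries was at least 3.31.

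The values are means of DNA immunoprecipitation sequencing signal over each gene area, made with antibodies to 5-methylcytosine (5mC) or to 5-hydroxymethylcytosine (5hmC), the oxidised form that Tet enzymes make from 5mC. Naive T cells and T cells labelled Th1, Th2, iTreg (induced regulatory T cells) and Th17 each gave 1 library per antibody, and Th17 cells also gave 1 control IgG library and 1 library of input DNA. The study used mice with CD2(Cre) and Tet2(f/f), in which Cre removes Tet2 where CD2(Cre) is active, and wild-type littermates of mixed background, but the labels do not say which mice any of the 12 libraries came from, how many were pooled, or how old they were. With 1 library per cell type and antibody, no difference between cell types has a replicate check, so such differences are given as values and by a rule of size, at least 2-fold.

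The median gene area had a 5hmC signal of 9.9 to 12.0 across libraries, a 5mC signal of 0.6 to 0.7, an IgG signal of 0.8 and an input signal of 1.7. One pair of 5hmC labels was in doubt: Il17a and Il17f, the defining cytokine genes of Th17 cells, had 31.3 and 32.8 in the library labelled iTreg but 8.8 and 5.3 in that labelled Th17. Foxp3, the defining factor of regulatory T cells, had 25.3 and 30.9 there, beside 24.2 in naive cells, so the doubt rests on Il17a and Il17f. Both 5hmC libraries are therefore called by their labels, and the main counts, list counts and limma estimates are also given without them. In 5mC, Il17a and Il17f had 0.3 and 0.3 in iTreg and 0.4 and 0.6 in Th17, steps near the last decimal given. Marker genes of B, myeloid and CD8 T cells (Cd79a, Lyz2, Csf1r and Cd8a) had a summed 5hmC signal of 267.4 in the naive library and 78.9 to 99.6 in the others, with 0 of the 4 markers at 0 in any library. 5hmC at a gene does not measure its RNA, and the part of other cells in the differences from naive was not tested.

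Promoter windows of the 8 genes, from 250 bases before to 50 after a start site, were taken from RefSeq on build GRCm38.p6 to show which members carry interferon response letters. Each gene had at least 1 window, 11 in all. A GAS core, a site type of the interferon gamma response, was searched as TTCNNNGAA. An ISRE core, the site type read by Irf proteins, was searched as GAAA, any 2 bases, and GAAA. Both strands were searched, and 8.30% and 3.44% of all 32851 windows held them. Among the members, Irf1, Irf2 and Irf8 had a window with a match, so the 250 bases before the start site of these 3 are printed with the matches in capitals. In Irf1 (chr11:53769764-53770013, plus strand) the capitals mark 1 GAS core that starts 90 bases before the start site, and in Irf8 (chr8:120736108-120736357, plus strand) they mark 2 GAS cores at 171 and 153 bases before it. In Irf2 (chr8:46739495-46739744, plus strand) they mark 1 ISRE core and 1 GAS core, at 241 and 224 bases before it. A match is a description of letters, and the gene area values do not resolve the promoter.
Irf1: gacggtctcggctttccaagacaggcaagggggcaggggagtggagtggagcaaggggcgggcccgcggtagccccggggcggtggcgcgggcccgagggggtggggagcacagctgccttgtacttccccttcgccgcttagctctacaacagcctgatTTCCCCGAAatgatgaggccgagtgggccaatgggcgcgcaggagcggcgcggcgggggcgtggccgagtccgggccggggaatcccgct
Irf2: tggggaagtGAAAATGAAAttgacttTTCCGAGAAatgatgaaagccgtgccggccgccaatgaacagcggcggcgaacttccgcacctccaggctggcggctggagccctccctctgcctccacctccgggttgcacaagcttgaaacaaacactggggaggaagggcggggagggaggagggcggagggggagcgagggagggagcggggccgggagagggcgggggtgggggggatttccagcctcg
Irf8: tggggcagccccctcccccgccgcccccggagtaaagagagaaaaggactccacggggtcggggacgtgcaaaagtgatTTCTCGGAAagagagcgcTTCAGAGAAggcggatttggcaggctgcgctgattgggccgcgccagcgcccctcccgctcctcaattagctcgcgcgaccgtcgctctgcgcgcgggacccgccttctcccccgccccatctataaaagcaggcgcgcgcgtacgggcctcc

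The same windows differed in how many CpG pairs, the usual site of both modifications, they held. Over the full 300 bases, the Irf1 windows held 32 and 43 CpG, with fewer in 90.5% and 97.4% of all windows, and the Irf5 window held 35, with fewer in 93.0%. The Irf8 windows held 38 and 8, with fewer in 95.0% and 51.4%. The stretches printed for Irf1, Irf2 and Irf8 hold 25, 17 and 29 of these CpG. Irf2 and Irf3 held 19 and 18, Irf4 held 11 and Irf7 held 7, the median of all windows. The Irf9 windows held 9 and 1.

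With 5hmC, Irf1, Irf7 and Irf9 carried their highest signal in naive cells and lay at least 2-fold lower in each of the 4 differentiated libraries as deposited, while Irf3, Irf4 and Irf8 did not share this pattern. Under median-ratio scaling, which fits the median gene area of each library to the others, Irf9 in the library labelled iTreg came to a log2 difference of -0.98, just under 2-fold. Irf1, a target of interferon gamma that drives Th1 genes (chromosome 11, 53583515 to 53591875 on mm9), had the highest naive signal of the family, 141.2. It had 58.9 in Th1, 38.3 in Th2, 44.2 in the library labelled iTreg and 17.7 in that labelled Th17. All 4 lay below naive, and the library labelled Th17 was the lowest. The log2 differences from naive were -1.26, -1.88, -1.67 and -2.98. In naive cells the Irf1 signal exceeded that of 99.6% of gene areas past the filter, and in the library labelled Th17 that of 72.2%.

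**Figure D1:**
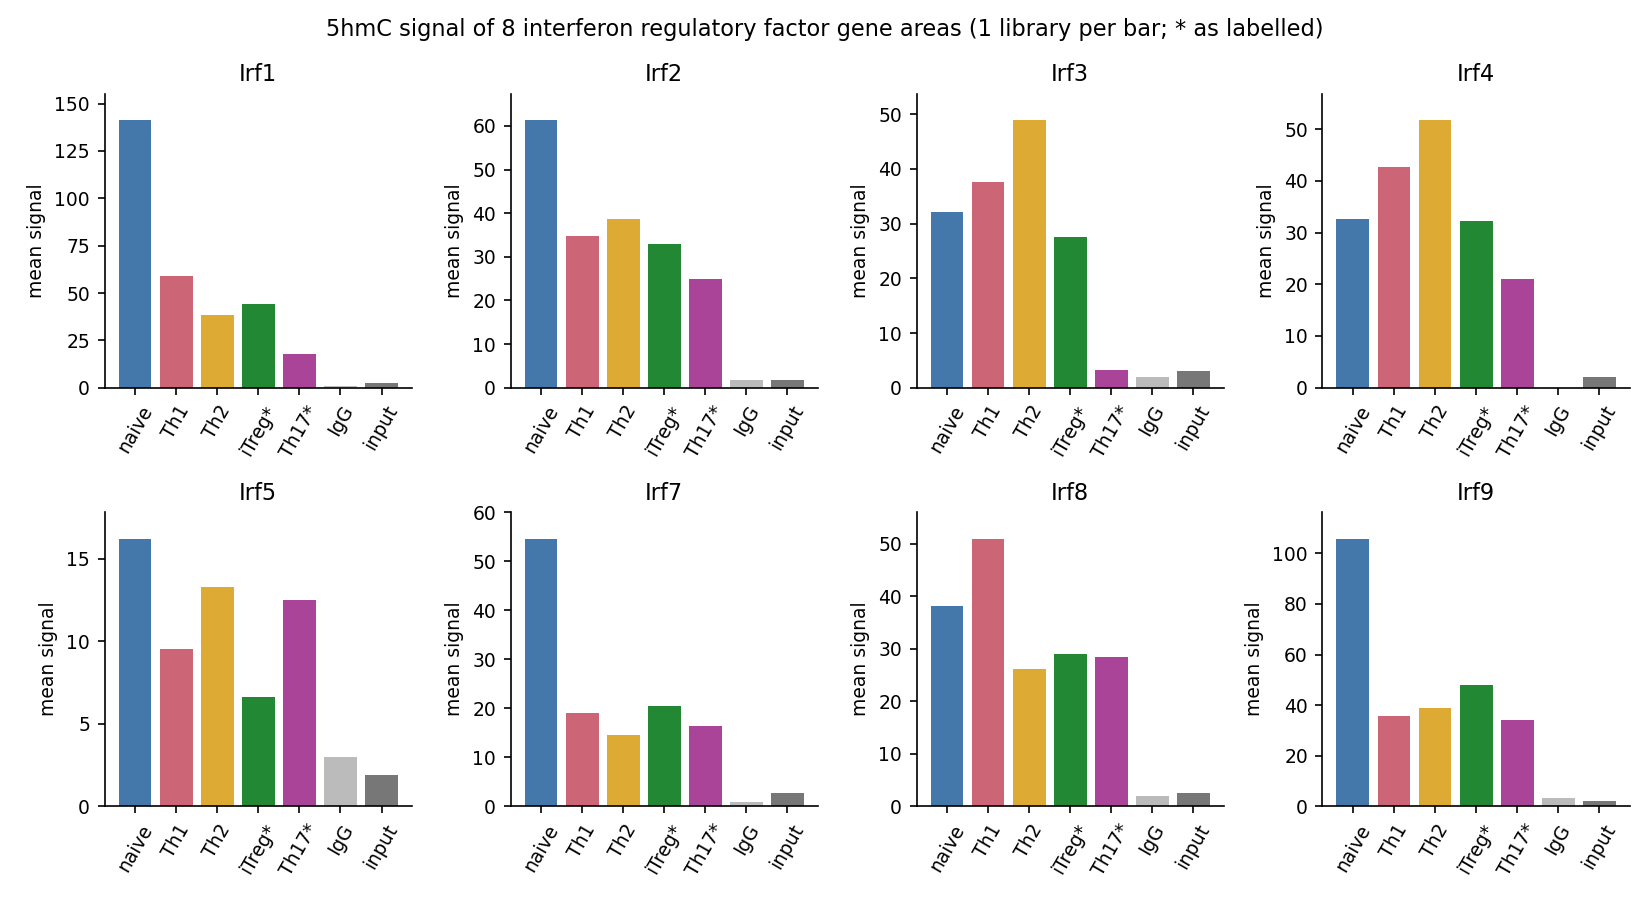
Mean 5hmC signal (vertical axis, linear, own scale per gene) of the 8 gene areas in the naive, Th1, Th2, iTreg and Th17 libraries, with the Th17 IgG and input values of the same gene area in grey; each bar is 1 library, so there are no error bars, and stars mark 5hmC libraries whose labels are in doubt. Naive is the highest bar for Irf1, Irf2, Irf5, Irf7 and Irf9, and Irf3 in the library labelled Th17 (3.2) stands next to input (3).

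Irf9, a DNA-binding part of the complex that forms after type I interferon (chromosome 14, 56222821 to 56228866), had 105.8 in naive cells. The other libraries had 35.8 in Th1, 39 in Th2, 48 in that labelled iTreg and 34.2 in that labelled Th17. The 4 differentiated values lay close to each other and all well below naive, with log2 differences of -1.56, -1.44, -1.14 and -1.62. Irf7, the factor that amplifies interferon alpha genes (chromosome 7, 148449087 to 148452299), had 54.6 in naive cells, 19 in Th1, 14.6 in Th2, 20.4 in the library labelled iTreg and 16.3 in that labelled Th17. Its log2 differences were -1.51, -1.89, -1.41 and -1.73. Over the 5 libraries Irf7 and Irf9 were the most alike pair of members, with a root mean square difference of 0.184 in log2 after each gene's own mean was removed. Over naive, Th1 and Th2 alone theirs was 0.225, and Irf3 and Irf4 were the most alike, at 0.066.

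Irf2, the repressor that competes with Irf1 (chromosome 8, 47825098 to 47932811, the longest area at 107713 bp), was also highest in naive cells, less steeply. It had 61.3 in naive cells, 34.8 in Th1, 38.7 in Th2, 33 in the library labelled iTreg and 25 in that labelled Th17. Only the last was at least 2-fold lower (log2 difference -1.29), and with median-ratio scaling of the libraries it was -0.99. Irf5, an inducer of inflammatory cytokines in myeloid cells (chromosome 6, 29476732 to 29487318), was the weakest member. It had 16.2 in naive cells, 9.5 in Th1, 13.3 in Th2, 6.6 in the library labelled iTreg and 12.5 in that labelled Th17, beside an IgG signal of 3 in the same gene area. Its naive signal exceeded that of 48.2% of gene areas, against 79.9% or more for every other member, and only the library labelled iTreg was at least 2-fold lower (-1.27).

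Irf4 and Irf8, the closely related members that pair with other factors in lymphoid and myeloid cells, did not follow Irf1. Irf4 (chromosome 13, 30841126 to 30858795) had 51.7 in Th2 and 42.7 in Th1, above the 32.6 of naive cells. The library labelled iTreg had 32.2, level with naive, and that labelled Th17 had 21, and IgG was listed at 0 there. The log2 differences were 0.66 in Th2, 0.39 in Th1, -0.02 and -0.63, all under 2-fold, and that of the library labelled iTreg turned to 0.14 under median-ratio scaling of the libraries. Irf8 (chromosome 8, 123260275 to 123280593) was highest in Th1, with 51, and had 38.1 in naive cells, 26.1 in Th2, 29 in the library labelled iTreg and 28.5 in that labelled Th17. The ratio of its highest to its lowest library was 1.95, the smallest of the family. Irf8 and Irf4 thus stood in opposite order in Th2, where Irf4 was highest and Irf8 lowest of the 5 libraries. Irf8 overlaps the predicted gene Gm19562 over 6410 bp, 31.5% of its area, and the table does not separate signal from the shared stretch.

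Irf3, the factor that starts interferon beta transcription after viral sensing (chromosome 7, 52253029 to 52258217), varied most, 15.3-fold between its highest and lowest library. It had 32.2 in naive cells, 37.7 in Th1, 48.9 in Th2, 27.6 in that labelled iTreg, but 3.2 in that labelled Th17. The last value is near the IgG and input signals of the same area, 2 and 3, and exceeded only 1.52% of gene areas in that library. Of the members, only Irf3 missed the mark of 2-fold over IgG in all 5 libraries. That mark was met by 7 of 8 members and by 95.4% of gene areas. The mean of the 4 differentiated libraries lay below naive by a log2 difference of -0.66, and that of Th1 and Th2 alone lay above it by 0.41, so the sign for Irf3 rested on the library labelled Th17.

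**Figure D2:**
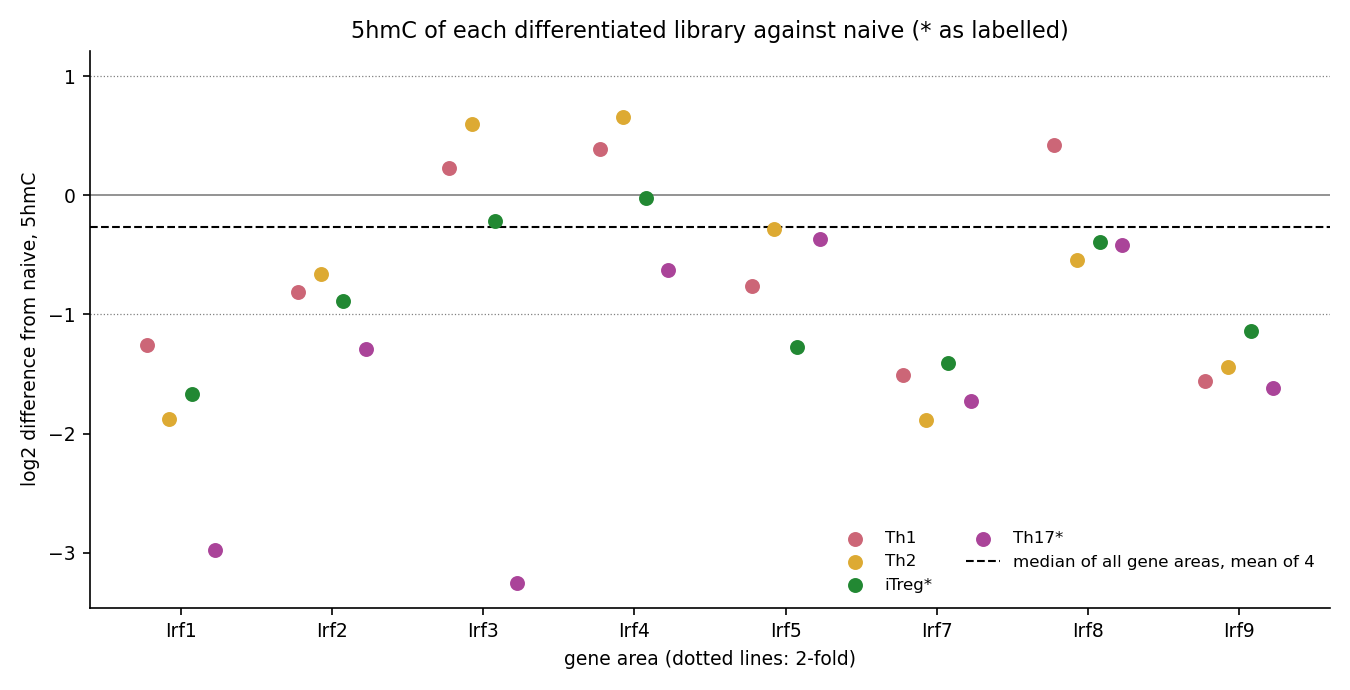
Log2 difference in 5hmC between each differentiated library and naive (vertical axis, after adding 0.2 to each value) for the 8 gene areas; each point is 1 library, the dashed line is the median of all 28159 gene areas for the mean of the 4 libraries (-0.27), and dotted lines mark 2-fold. Irf1, Irf7 and Irf9 have all 4 points below the lower dotted line, and no point of any member reaches the upper one.

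Over the family, 7 of 8 members had a mean of the 4 differentiated libraries below naive, with a median log2 difference of -0.79 and a range from -1.95 for Irf1 to 0.10 for Irf4. Of all 28159 gene areas 64.4% lay below naive, with a median of -0.27, so a lower value is common in these libraries. The members at least 2-fold lower in that mean were 3 of 8, Irf1, Irf7 and Irf9, against 16.0% of gene areas, and 0 of 8 were at least 2-fold higher, against 2.94%. The same 3 were at least 2-fold lower in the mean of Th1 and Th2 alone (14.1% of gene areas), and in the mean of the 4 under median-ratio scaling. By single library, 3 of 8 were at least 2-fold lower in Th1 (16.1% of gene areas), 3 in Th2 (14.8%), 4 in the library labelled iTreg (14.7%) and 5 in that labelled Th17 (25.6%). None of the 8 was at least 2-fold higher in any of these libraries, where 4.34%, 4.85%, 4.52% and 4.63% of gene areas were. Under median-ratio scaling, which raises the log2 differences by 0.15 to 0.30 depending on the library, the counts were 3, 3, 3 and 4, against 10.7%, 10.6%, 10.2% and 16.9% of gene areas, since Irf9 in the library labelled iTreg and Irf2 in that labelled Th17 no longer reached 2-fold. Over all gene areas, 4497 were at least 2-fold lower and 827 higher in the mean of the 4 libraries as deposited, and 2858 and 1487 with that scaling. These comparisons share 1 naive library, so they are not separate evidence for one another.

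The naive library was the highest of the 5 for 5 of 8 members, against 44.9% of gene areas. Without the libraries labelled iTreg and Th17 it was also the highest for 5 of 8, against 52.7%. The library labelled Th17 was the lowest for 5 of 8 members (Irf1, Irf2, Irf3, Irf4 and Irf9), against 36.3% of gene areas. In naive cells the order of the mean signal, which is read as a value per length, was Irf1, Irf9, Irf2, Irf7, Irf8, Irf4, Irf3 and Irf5. In Th2 it was Irf4, Irf3, Irf9, Irf2, Irf1, Irf8, Irf7 and Irf5, and whether neighbours in either order differ could not be told with 1 library each.

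The gene areas next to the members were set beside them, and some had like patterns. Bcl2l12 and Scaf1 lie 81 and 102 bp from the ends of Irf3 and were low in the library labelled Th17 as well: Bcl2l12 had 17.1 to 27.2 in the other 4 libraries and 4.9 there, and Scaf1 had 31.4 to 36.4 and 7.2. Neither shared the high Th2 value of Irf3. Phrf1, 438 bp from Irf7, had 35.1 in naive cells against 12.2 to 22.5 elsewhere, and Cdhr5, on the far side, 45.2 and 16.8 to 22.5. Both flanks of Irf7 were thus also highest in naive cells, as were 44.9% of all gene areas. Rnf31, 314 bp from Irf9, which encodes a subunit of the linear ubiquitin ligase, had 81.9 in naive cells against 17.4 to 35.6 elsewhere, while Rec8, 8140 bp away on the other side, had 35.7 and 26.7 to 34. A DNA fragment could span ends 81 to 438 bp apart, so signal at such gene areas is not taken as independent. Cdhr5 (2684 bp) and Rec8 (8140 bp) lie further away. Whether fragments were shared was not tested.

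**Figure D3:**
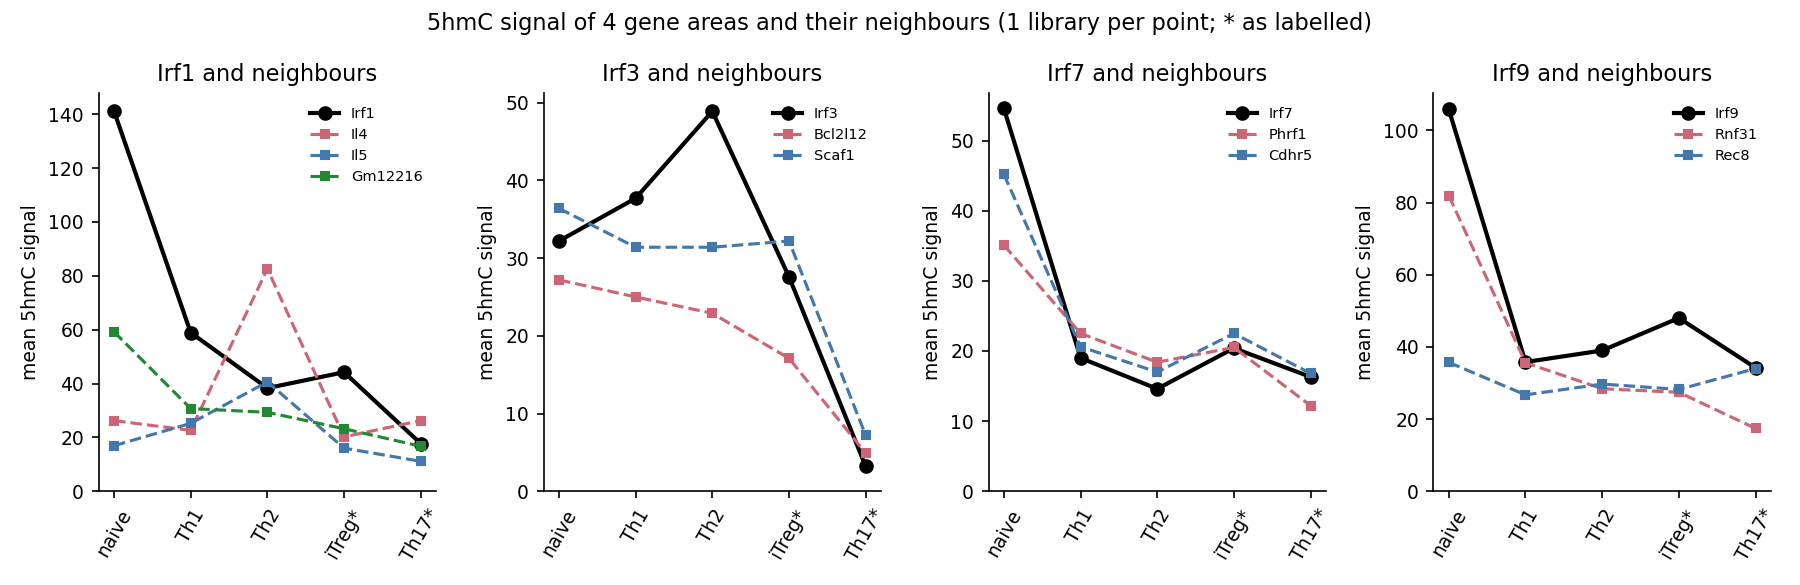
Mean 5hmC signal (vertical axis, linear, from 0) of Irf1, Irf3, Irf7 and Irf9 (black circles) and of neighbouring gene areas (coloured squares) in the 5 libraries; each point is 1 library, and lines only join the points of 1 gene area. Irf3, Bcl2l12 and Scaf1 all have their lowest point in the library labelled Th17, and Il4 and Il5 peak in Th2 where Irf1 has 38.3.

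Irf1 lies at the edge of the Th2 cytokine locus, and its pattern differed from that of the cytokine genes on its left. Il5, 44911 bp away, had 16.9 in naive cells and 40.6 in Th2, and Il4, 151349 bp away, had 26.2 and 82.6. Irf1 had its highest value in naive cells and 38.3 in Th2. On its right, the predicted gene Gm12216, 7115 bp away, went with Irf1, at 59.2 in naive cells against 16.7 to 30.7 elsewhere. Near Irf4, Exoc2 (46991 bp away) had 32.2 in naive cells, 36.2 in Th2 and 23.3 in the library labelled Th17, a flatter profile than that of Irf4. The predicted gene Gm18709, 8365 bp before Irf8, had 153.4 in Th2 and 38.3 to 96.1 in the others, beside an IgG signal of 12.6, so this area was highest where Irf8 was lowest. Both neighbours of Irf5, Kcp and Tnpo3, varied little (11.7 to 17.7 and 12 to 16.5). Next to Irf2, Gm16675 (230 bp away) was highest in Th2, with 52.3 against 36.7 in naive cells, and Enpp6 lay at 11.1 to 16.8. The gene areas that follow Irf8 and precede Irf4, Gm3796 and Gm11370, had 18.8 to 31.5 and 10.7 to 30.3.

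Some other genes had 5hmC profiles close to those of members over the 5 libraries. Likeness was the root mean square difference of log2 values after each gene's mean was removed, over 14970 named genes of at least 3000 bp past the filter, and the 2 nearest are named. Irf2 was nearest to Fyb and Rab11fip4 (0.026 and 0.030), Irf9 to E2f2 and Gtf2ird1 (0.033 and 0.037), Irf4 to Ninj1 and Crabp2 (0.038 and 0.053), and Irf7 to Ddx54 and Ppm1g (0.050 and 0.056). Irf5 was nearest to Atp5g2 and Abcd3 (0.068 and 0.081), Irf8 to Fbxo8 and Otx1 (0.083 and 0.087), and Irf1 to Qars and Mxra8 (0.134 and 0.144). No such profile lay close to Irf3, whose nearest were Tiparp and Foxj1 at 0.492 and 0.550. Ninj1 shows the likeness to Irf4, with 24.1 in naive cells, 31.9 in Th1, 37.3 in Th2, then 24 (labelled iTreg) and 16.4 (labelled Th17). With 5 points per gene, such likeness is a description only, and it rests on both libraries whose labels are in doubt.

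With 5mC the members' signals were low and the differences small. The family lay between 0.3 and 2.6 in every 5mC library, below the input signal of the same gene area in all 8 members, from 0.143 times input for the lowest Irf4 value to 0.885 times for the highest Irf7 value. The values as deposited therefore do not show enrichment over input. The median gene area too had a 5mC signal of 0.6 to 0.7 beside an input signal of 1.7. The share of all gene areas below input was not computed, so this order is not read as a trait of the family. Irf4 had the lowest 5mC of the family, 0.3 in naive cells, 0.6 in Th1 and 0.5 in Th2, iTreg and Th17. Irf3 had 2 in naive cells and 2.6, 1.6, 1.7 and 1.1 after differentiation, and Irf8 had 1.9 and 2, 1.6, 1.3 and 1.5. Irf9 stayed between 1.2 and 1.5, and Irf2 between 0.7 and 1.0. For Irf1, Irf2, Irf4 and Irf5 each differentiated 5mC value lay above naive, some by little, as with Irf2 at 0.7 in naive cells and 0.8 in iTreg. The share of all gene areas with that order was not computed, so it is not known whether it is unusual.

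Irf1, which was high in naive 5hmC, had its lowest 5mC there, 0.5, with 0.9 in Th1, 0.8 in Th2, 1.1 in iTreg and 0.9 in Th17. Irf5 had 0.7 in naive cells and 1.2, 1, 1.1 and 0.8. These steps are a few units of the last decimal given. Irf7 had 2.3, 2.0, 2.3, 1.6 and 0.8 in cell type order, naive first. This made Irf7 in Th17 the single member at least 2-fold lower in 5mC (log2 difference -1.32), which came to -0.87, under 2-fold, with 1 added to each value in place of 0.2. So 1 of 8 was at least 2-fold lower in Th17, against 3.99% of gene areas, and 0 of 8 in Th1, Th2 and iTreg, against 2.23%, 3.12% and 4.63%. At least 2-fold higher were 0 of 8 in each, against 2.22%, 1.56%, 1.33% and 1.50%, in the order Th1, Th2, iTreg, Th17. The median over the members for the mean of the 4 libraries was 0.11, and that of all gene areas -0.11. In that mean 0 of 8 were at least 2-fold lower or higher, against 2.07% and 0.799% of gene areas.

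**Figure D4:**
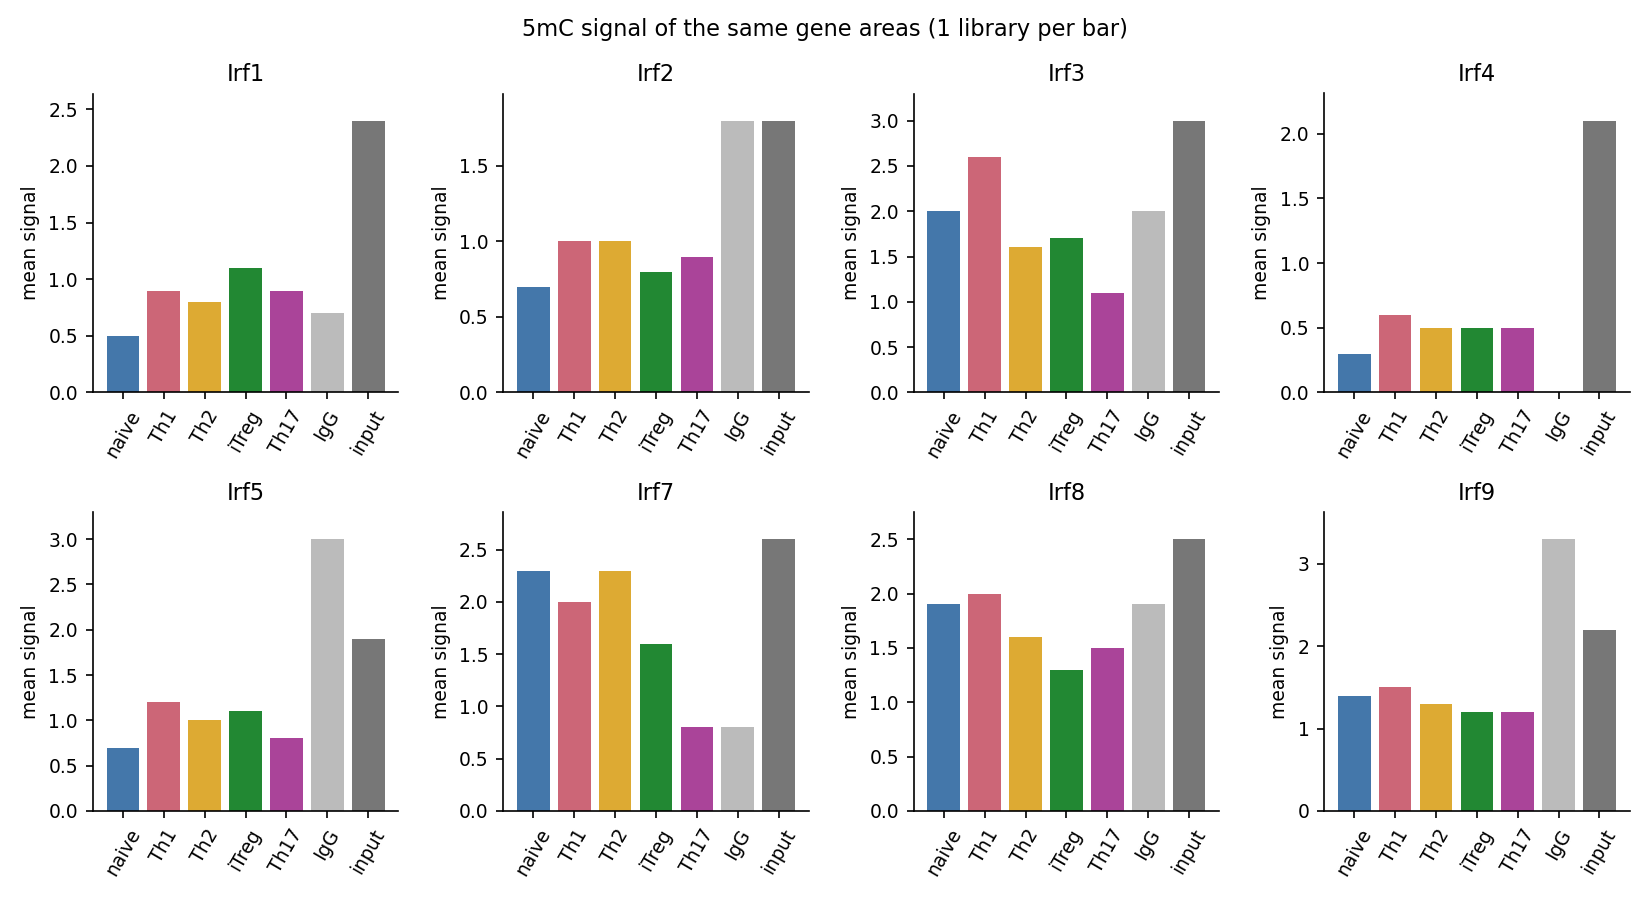
Mean 5mC signal (vertical axis, linear, own scale per gene) of the 8 gene areas in the 5 cell types, with IgG and input of Th17 cells in grey; each bar is 1 library. All 5mC bars lie below the input bar of their gene, and Irf7 in Th17 (0.8) is the single value at least 2-fold below naive.

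Since both antibodies were applied to the same 5 cell types, 5hmC could be set against 5mC with a test, limma blocked by cell type, after subtracting the median of every library, so that 0 stands for the median gene area. The blocks pair libraries by label, and the 5hmC labels iTreg and Th17 are in doubt. Irf4, Irf1, Irf2 and Irf9 stood above it. Irf4 had a log2 difference of 1.83 (SE 0.21, limma adjusted p = 0.000467), above that of 98.5% of gene areas and above 0 in 5 of 5 cell types, from 1.10 in the pair labelled Th17 to 2.36 in Th2. Irf1 had 1.70 (SE 0.42, limma adjusted p = 0.0122), from 3.72 in naive cells to 0.21 in the pair labelled Th17. The 5mC values of Irf4, 0.3 to 0.6, are near the 0.2 added to each value. With 1 added in its place Irf4 had 1.51 and Irf1 had 1.66, so their order depends on that setting. Irf2 and Irf9 had 1.25 (SE 0.22) and 1.12 (SE 0.22), with limma adjusted p of 0.00245 and 0.00479, both above 0 in 5 of 5 cell types. These 4 of 8 members passed an adjusted p of 0.05 and a 2-fold difference, against 10.1% of gene areas called higher. Without both doubtful cell types Irf4, Irf1, Irf2 and Irf9 had 2.17, 2.40, 1.50 and 1.23, with limma adjusted p of 0.00375, 0.0104, 0.0134 and 0.0376. The call of Irf9 rested on the naive pair of libraries, since without it the difference was 0.87.

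**Figure D5:**
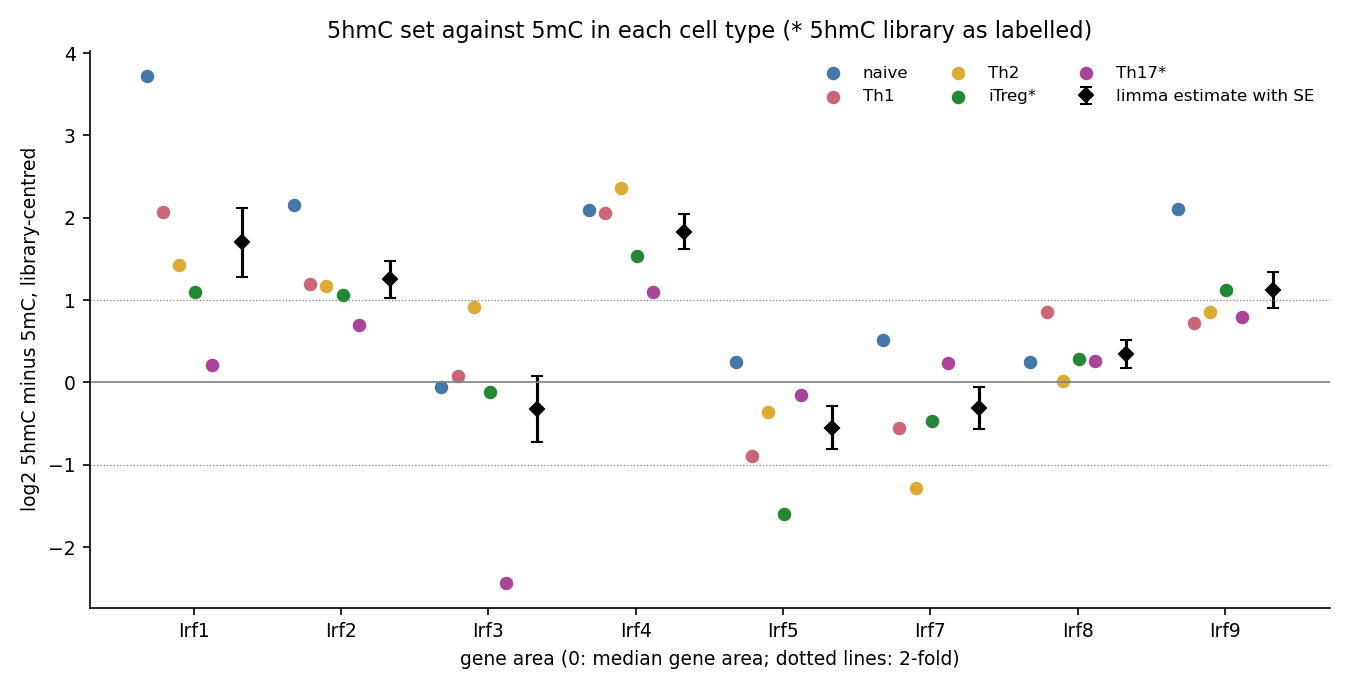
Log2 difference of 5hmC and 5mC signal (vertical axis, after subtraction of library medians) for the 8 gene areas; coloured points are the 5 cell types, 1 pair of libraries each, and black diamonds are the limma estimate with its standard error. Irf1, Irf2, Irf4 and Irf9 have all 5 points above 0, as does Irf8, and Irf3 spreads from 0.92 in Th2 to -2.43 in the pair labelled Th17.

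The remaining 4 members were not called. Irf8 had 0.34 (SE 0.17, limma adjusted p = 0.156), Irf7 had -0.31 (SE 0.26, adjusted p = 0.363), Irf3 had -0.32 (SE 0.40, adjusted p = 0.558) and Irf5 had -0.55 (SE 0.26, adjusted p = 0.127). None was called lower, against 7.62% of gene areas. The points of Irf4 lay within 1.10 to 2.36, whereas those of Irf1 ran from 0.21 to 3.72 with the naive pair on top. Irf3 spread over more than 3 log2 units between Th2 and the pair labelled Th17. Its difference was 0.21 without that pair and 0.31 without both doubtful cell types. This test measures spread over cell types, with 1 pair of libraries each, and the centring decides where 0 lies.

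Genes that work with the family were taken from lists of ligands, receptors, sensors, partners and targets. Their counts are read against all gene areas, of which 64.4% were below naive when the 4 libraries were averaged, 16.0% at least 2-fold lower and 2.94% at least 2-fold higher, with a median of -0.27. In 5hmC, the receptors of interferons with their Jak and Stat proteins were mostly lower than naive: 8 of 9 had a mean of the 4 libraries below it and 7 of 9 at least 2-fold, with a median of -1.08. With Th1 and Th2 alone 5 of 9 were at least 2-fold lower, against 14.1% of gene areas, and 1 higher. The share of gene areas at least 2-fold higher with Th1 and Th2 alone was not computed, here and for the lists below. Jak1, a kinase bound to interferon receptors, had 64.3 in naive cells against 18.4 to 26.6 elsewhere. Ifnar2, a chain of the type I receptor, had 55.6 and 36.6 to 51.9. Jak2 went the other way, with 31.7 in naive cells, 65.1 in Th1, 94.8 in Th2, then 30.1 (labelled iTreg) and 25.6 (labelled Th17). Its order of libraries is that of Irf4, with a wider range.

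Among 26 interferon-stimulated targets, 23 lay below naive and 8 at least 2-fold, with a median of -0.64, and with Th1 and Th2 alone 6 were at least 2-fold lower. Isg15, a ubiquitin-like antiviral protein, had 100.8 in naive cells against 13.3 to 41 elsewhere, and Psmb9, an immunoproteasome subunit, 128 and 30 to 45.2. Gbp3 and Ifi44 were highest in the list, with log2 differences of 0.80 and 0.34. Of 19 sensors and kinases upstream of Irf3, Irf5 and Irf7, 16 lay below naive and 4 at least 2-fold, with a median of -0.51, and with Th1 and Th2 alone again 4. The share at least 2-fold lower is near that of all gene areas. Tbk1, the kinase of Irf3, had 30.9 in naive cells, 13.6 in Th1, 13 in Th2, then 16.9 (labelled iTreg) and 6.2 (labelled Th17), and Myd88, the adaptor of toll-like receptors, 26.8 and 8 to 15.2. Tlr8 and Tlr4 stood at 0.38 and 0.37, and both were under the filter on low values. In 5mC, 0 genes of these 3 lists were at least 2-fold away from naive in the mean of the 4 libraries, where 2.07% of all gene areas were lower and 0.799% higher.

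Of 18 partners and cofactors, 14 lay below naive, 3 at least 2-fold lower and 1 at least 2-fold higher, with a median of -0.28, and 3 and 1 with Th1 and Th2 alone. The share at least 2-fold lower and the median are near those of all gene areas. The one higher was Batf3, a partner of Irf4 and Irf8, with 13.5 in naive cells, 49.5 in Th1, 55.9 in Th2, then 15 (labelled iTreg) and 15.7 (labelled Th17). The lowest were Irf2bpl, a relative of the Irf2 binding proteins that the table lists under an older clone name, with 103.7 and 19 to 41.5, and Ikzf1, the Ikaros factor, with 49.2 and 14.2 to 20.6. Jun, with 5.1 in naive cells against 4.1 to 10.1 elsewhere, stood next to Batf3 at 0.36. Interferon genes themselves went both ways, with 7 of 11 below naive, 1 of them at least 2-fold lower, and their median was -0.34. The share below naive is near that of all gene areas. With Th1 and Th2 alone 1 was at least 2-fold lower. Ifna2 had 41.8 in naive cells against 13 to 24.3 elsewhere, Il28b stood at -0.79 and Il28a at 0.57, and Ifnz was listed at 0 in 4 libraries and at 1.6 in that labelled Th17. Of the 11, 7 passed the filter. In 5mC, 1 of them was at least 2-fold lower and 1 higher.

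Of the effector genes tied to Irf4 in T cells, 5 of 13 lay below naive and 8 above, with a median of 0.10, 1 at least 2-fold lower and 1 higher. With Th1 and Th2 alone 0 were at least 2-fold lower, against 14.1% of gene areas, and 3 higher. The share of gene areas higher there was not computed, so it is not known whether 3 of 13 is unusual. Il10 had 12.6 in naive cells, 29.3 in Th1, 51.7 in Th2, then 24.2 (labelled iTreg) and 8.1 (labelled Th17). Ccr8 was lowest, with 265 and 70.8 to 232.3, and Prdm1, which encodes Blimp1, had 50.4 and 21 to 37. With Th1 and Th2 alone, the medians of the lists were -1.07 for receptors and their Jak and Stat proteins, -0.46 for targets, -0.44 for sensors, -0.12 for partners, -0.04 for ligands and 0.12 for the Irf4 list, beside -0.23 for all gene areas.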

How the data were processed

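The signal deposited by the authors stood in 1 table of 37752 rows by 12 libraries, as numbers with 1 decimal and none below 0. CASAVA 1.7.0 and build mm9 are named per the submitters' processing notes. How reads were aligned, counted and scaled is not given in the sources used, so the depth is unknown and no counting interval could be computed. Columns were matched by the sample number in the titles, with 0 unused. For repeated symbols the row whose mean over the 10 antibody libraries was highest was kept (208 rows left out). Values did not grow in proportion to gene length, though short areas were lower, and were read as means over the area, which no source states outright. Gene coordinates are those of the file, whose counting from 0 or 1 is not stated. Log2 was taken after adding 0.2, the 5th percentile of non-zero values, so folds of low areas are understated. Counts used gene areas with a mean of at least 3.31, the 25th percentile. 5hmC was set against 5mC by limma 3.58.1 (R 4.3.3, trend, Benjamini-Hochberg over 28159 gene areas), which was tested on simulated data. Other steps used Python 3.11.15, numpy 2.4.6 and pandas 2.3.3. Named genes were the 8 members, the 2 nearest 5hmC profiles of each, adjoining or overlapping gene areas, and the 2 highest and 2 lowest of each list, of which some are not reported here. Il4, in the Th2 locus, was chosen after its values were seen. The members and lists were chosen with earlier results of these data known. Alternatives were other scaling, pseudocount, filter, centring, blocking and sets of libraries. The planned comparison of protein sequences was not run, and proteins are not used here.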

Additional observations from a re-analysis of the deposited data

How the results depend on the processing

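The counts of gene areas past 2-fold depended on the settings. Under median-ratio scaling, gene areas at least 2-fold lower in 5hmC numbered 3003 in place of 4522 in Th1, 4751 in place of 7208 in the library labelled Th17 and 2858 in place of 4497 in the mean of 4, and those higher 2645 in place of 1304 in the library labelled Th17 and 1487 in place of 827 in the mean. In 5mC the same scaling gave 868 lower and 611 higher in iTreg and 748 and 650 in Th17, in place of 1303 and 374, and 1123 and 422. Without the filter, which adds low gene areas, those higher in 5hmC were 2762 (Th1), 2808 (Th2), 2760 (labelled iTreg), 2734 (labelled Th17) and 1840 (mean), and in 5mC 1303 lower and 1108 higher (Th1), 1738 and 815 (Th2), 2416 and 690 (iTreg), 2057 and 805 (Th17). With 1 added to each value, 5mC counts were 119 lower and 108 higher for Th1, 156 and 74 for Th2, 254 and 60 for iTreg, 183 and 65 for Th17.

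For 5hmC against 5mC, values without centring gave 28089 gene areas higher and 3 lower in place of 2853 and 2147, and no filter gave 6035 lower. Without centring Irf3, Irf5, Irf7 and Irf8 had log2 differences of 3.53, 3.31, 3.54 and 4.19, all called. With 1 added to each value Irf3 came to 0.03, and without the cell types iTreg and Th17, a choice made after seeing the data, to 0.31. The cause of these changes was not tested beyond the setting named. Leaving out 1 cell type at a time, Irf3 ranged from -0.63 to 0.21 and Irf9 from 0.87 to 1.22, with the lowest Irf9 value and the highest Irf3 value those without naive and without Th17. Irf1, Irf2 and Irf4 were called under each alternative run. No paired analysis by replicate number was possible because each group held 1 library. Without the cell type block, 2843 gene areas were higher and 2145 lower. Of 38 alternative values for the members' and the family's differences from naive, 37 moved by less than 1.5-fold and 1, Irf3 in Th1 and Th2 alone (0.41), by more. Medians of -0.95 to -0.59 were found for the family in 5hmC. The depth is unknown, and the rounding to 1 decimal limits the 5mC values most.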
